A study of Mus musculus with 12 samples.

Results

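Gene expression in mouse brain 48 h after photodynamic therapy (PDT) was compared with that 12 h after it. Of the 54532 genes in the deposited table, 16544 stood above 0.5 FPKM (a level of reads per unit of gene length and of sequencing depth) in at least 3 of the 6 libraries compared, and these were tested. Each time point had 3 libraries: replicates 1 and 2 and a library without a replicate number at 12 h, and replicates 1, 3 and 4 at 48 h. All treated mice had 5-aminolevulinic acid (5-ALA) by injection at 20 mg/kg, which circulated for 30 min, and then light from a 635 nm laser. The light dose is labelled 20 J/cm2 with each treated group and 20 J/cm in the protocol. Brains were collected after perfusion with saline at 0.9% NaCl, and total RNA was extracted with Trizol and a kit. The titles of the 3 control libraries say PBS and their treatment label says untreated. These and 3 libraries taken at 1.5 h serve here only as reference levels. The labels name BALB/c as the tissue source and C57BL/6 as the strain. They do not give the brain region, sex, age, time of day, or whether the controls had light. Nor do they state whether the libraries of a group are from different animals, so p-values reflect only how much these libraries differ, which may be technical.

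5-ALA is a precursor of heme, and cells convert it to protoporphyrin IX, a pigment that produces reactive oxygen species under light. Damaged proteins and strong neuronal activity each switch on short-lived programmes: heat shock factors drive chaperone genes, and calcium and kinase signals drive immediate early genes. Slower programmes in injured brain include the activation of microglia (the resident macrophages), the enlargement of astrocytes with intermediate filaments such as GFAP, and cell division. The comparison of 48 h with 12 h asks which transcripts were lower and which were higher at the later time.

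Depth was similar in both groups, with recovered read totals from 15746042 to 16490476 in the 12 h libraries and from 16247614 to 17444654 in the 48 h libraries. Pearson correlations across genes of log2(FPKM + 1) ran from 0.981 to 0.985 within 12 h and from 0.966 to 0.985 within 48 h, against 0.927 to 0.946 between the groups. Genes that define neurons (Snap25), astrocytes (Slc1a2) and myelin (Mbp) were abundant in all 6 libraries, with values below. Replicate 1 of 48 h stood apart from the other 48 h libraries on the second principal component, at -35.4 against 21.2 and 9.8. It had more myelin and choroid plexus RNA and less RNA of cortical marker genes than the other 48 h libraries. The summed FPKM of 15 cortical markers was 168 there against 310.1 and 323 in the others. Marker levels of tissue regions therefore differed among the 48 h libraries, and values without this library are given beside several results below. The libraries of 1.5 h replicates 1 and 3 also stood apart, with mitochondrial shares of 12.4% and 9.14% of reads against 4.16% in replicate 2, and they entered only alternative fits. Levels in bulk tissue cannot separate fewer cells of a type from less RNA per cell.

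Expression of 4143 genes changed between 12 h and 48 h (limma on log2(FPKM + 1), Benjamini-Hochberg false discovery rate 0.05). Levels rose for 1773 genes, or 10.7% of those tested, and fell for 2370, or 14.3%. The median log2 change over all tested genes was 0.01, so the groups of libraries were centred alike. Falls were larger than rises: 590 genes fell by at least 2-fold and 228 rose by at least 2-fold. Among the tested genes, 7506 (45.4%) had no overlap between the 3 values of each group, 3688 higher and 3818 lower at 48 h. Some genes passed the minimum level through only 1 of the groups: 427 did so through 12 h, of which 359 were called lower, and 202 through 48 h, of which 136 were called higher. The filter itself favours a call in that direction for these genes. Among those named below are Mki67, Cdk1, Top2a and Slc22a8 through 48 h, and Gm8696, Gm17651, Hist1h1b and Cd3e through 12 h. The number of calls depended on the libraries: it was 2224 without 12 h replicate 1, 1858 without 12 h replicate 2, 2530 without the unnumbered 12 h library, 2651 without 48 h replicate 3 and 2404 without 48 h replicate 4, and it was 5523 without 48 h replicate 1. None of the 4143 genes had the opposite sign in any of these fits. They share most of their libraries with the main fit, so a turn of sign was unlikely for a called gene. Of the lists below, some had 0 calls in a direction: at most 2 of the members of any such list had an unadjusted limma p under 0.05 in that direction, and limma-voom on the recovered reads called at most 1.

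**Figure D1:**
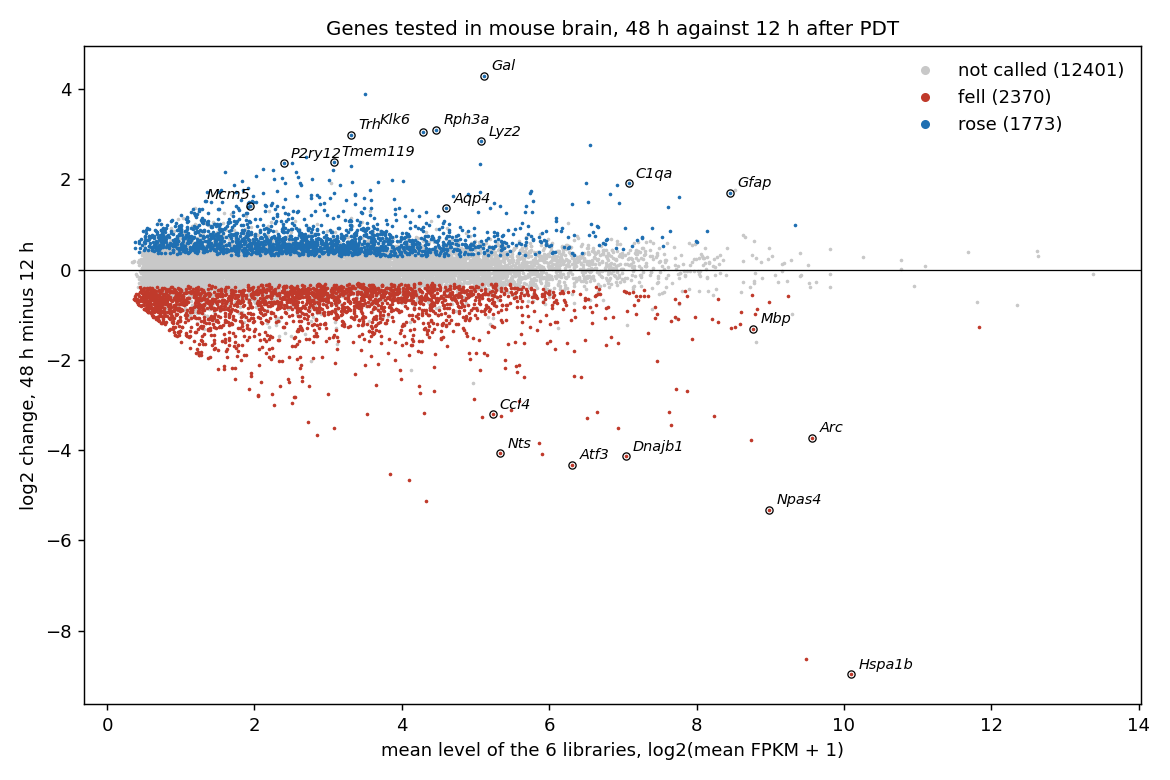
Log2 change of each tested gene (48 h minus 12 h, on the log2(FPKM + 1) scale) against its level on the x axis, as log2 of the mean FPKM of the 6 libraries plus 1. Points are genes, coloured blue where they rose, red where they fell and grey where not called. Falls extended to -8.97 and rises to 4.30, so the lower side of the cloud reached much farther.

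The inducible HSP70 genes had the largest falls. Hspa1b, which encodes an HSP70 chaperone made after heat or protein damage (chr17:34956436-34959238, GRCm38, minus strand), stood at 2307, 2137 and 2117 FPKM in the 12 h libraries and at 1.89, 4.75 and 3.99 FPKM in the 48 h libraries. The groups were far apart, and the 48 h values lay around the control range of 2.23 to 3.56 FPKM. Its log2 change was -8.97 (SE 0.24, adjusted p = 5.5e-06), and the mean at 12 h was 617 times that at 48 h. The neighbouring copy Hspa1a (chr17:34969190-34972156, minus strand) stood at 1501, 1422 and 1378 FPKM at 12 h and at 1.89, 2.52 and 3.68 FPKM at 48 h. Its log2 change was -8.63 (SE 0.18, adjusted p = 2.6e-06), again with 48 h values near the control range of 1.32 to 2.72 FPKM. Reads from these near-identical copies can be assigned to either, so the split between them is uncertain.

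The 250 bases before the start of both genes are shown because they are nearly the same sequence and carry the same heat shock element. They come from RefSeq on GRCm38.p6, read 5′ to 3′ toward the gene, and capitals mark the element GAANNTTC, searched on both strands. The Hspa1b window is chr17:34959239-34959488 and the Hspa1a window is chr17:34972157-34972406, both on the minus strand.
Hspa1b: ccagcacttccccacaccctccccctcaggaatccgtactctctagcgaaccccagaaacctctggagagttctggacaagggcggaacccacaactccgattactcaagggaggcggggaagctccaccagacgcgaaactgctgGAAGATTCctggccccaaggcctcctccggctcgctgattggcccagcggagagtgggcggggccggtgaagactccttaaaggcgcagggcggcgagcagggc
Hspa1a: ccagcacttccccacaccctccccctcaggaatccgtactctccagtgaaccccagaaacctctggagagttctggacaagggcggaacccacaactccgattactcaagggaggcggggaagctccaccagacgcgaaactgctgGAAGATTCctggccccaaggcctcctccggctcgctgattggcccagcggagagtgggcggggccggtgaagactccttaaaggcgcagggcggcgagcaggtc
Of the 250 positions, 247 held the same base, and the element began 104 bases before the start in both. Among all 32851 promoter windows of 300 bases, 7.86% held GAANNTTC, and 25 of the 32 tested heat shock genes had a window. The element was found in 7 of the 15 with a window that fell, in 4 of the 9 that were not called and in 0 of the 1 that rose. Stretches of 28 bases around further matches show how the flanks differ while the marked letters fit the same pattern.
Hspb1 (chr5:135887792-135887819, plus strand): ttcaacaagaGAAGTTTCcagatggggg
Hspb1 (chr5:135887812-135887839, plus strand): gatgggggcaGAACCTTCctggccccgc
Dnaja1 (chr4:40722334-40722361, plus strand): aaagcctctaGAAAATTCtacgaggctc
Hspe1 (chr1:55088054-55088081, plus strand): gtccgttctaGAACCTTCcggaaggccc
Dnajb6 (chr5:29735842-29735869, plus strand): tcagctccgaGAATCTTCcggaacgcta
Dnajb6 and Fkbp4 also held the pattern and were not called, so the letters alone did not separate genes that fell from those that did not.

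Across the list of heat shock proteins and their helpers, 20 of 32 tested members fell, 1 rose and 11 were not called, with a median log2 change of -0.53. The count of falls was 11 without 12 h replicate 2 and 20 without 48 h replicate 1, with the other left-out libraries between. Dnajb1, an HSP40 partner of HSP70, stood at 267, 226 and 249 FPKM at 12 h and 13.2, 13.7 and 12.4 FPKM at 48 h. All 48 h values were below the lowest control value, since the controls ran from 15.6 to 24.2 FPKM, and the log2 change was -4.14 (SE 0.11, adjusted p = 5.5e-06). Hsph1, which encodes the HSP110 exchange factor, stood at 329.8, 377 and 376 FPKM at 12 h against 44.2, 64.4 and 65.1 FPKM at 48 h, a log2 change of -2.64 (SE 0.17, adjusted p = 0.00032). Bag3, a co-chaperone that routes HSP70 clients to autophagy, stood at 48.5, 42.5 and 46.9 FPKM against 13.7, 11.3 and 11.5 FPKM, a log2 change of -1.84 (SE 0.11, adjusted p = 0.00024). At 48 h both were still at or above their control values, which were 37.9 to 47.05 FPKM for Hsph1 and 2.86 to 3.71 FPKM for Bag3, except that Hsph1 in replicate 1 lay inside its range.

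All 5 tested HSP90 and HSP110 genes and both heat shock factors on the list fell. The mitochondrial chaperonin pair fell together: Hspe1 had a log2 change of -1.66 (SE 0.17, adjusted p = 0.0012) and Hspd1 of -1.06 (SE 0.12, adjusted p = 0.0017). The cytosolic chaperones Hsp90aa1 and Hspa8, abundant in unstressed cells, changed by -0.97 (SE 0.19, adjusted p = 0.013) and -0.94 (SE 0.17, adjusted p = 0.0093) respectively. Hsp90aa1 lost its call without 12 h replicate 2 and without the unnumbered 12 h library (highest adjusted p over the alternatives 0.061). The small heat shock genes did not move as a group. Hspb1 stood at 121, 102 and 146 FPKM at 12 h and 53.4, 48 and 96.9 FPKM at 48 h, still above the controls at 3.75 to 5.38 FPKM. Its call at adjusted p = 0.042 was lost without any 1 of 5 libraries, 48 h replicate 4 being the exception (highest adjusted p 0.12). Hspb6, a small heat shock protein of muscle and astrocytes, was the list's only rise, at 3.84, 2.26 and 4.097 FPKM against 7.48, 7.27 and 8.06 FPKM (log2 change 0.99, SE 0.18, adjusted p = 0.0086).

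**Figure D2:**
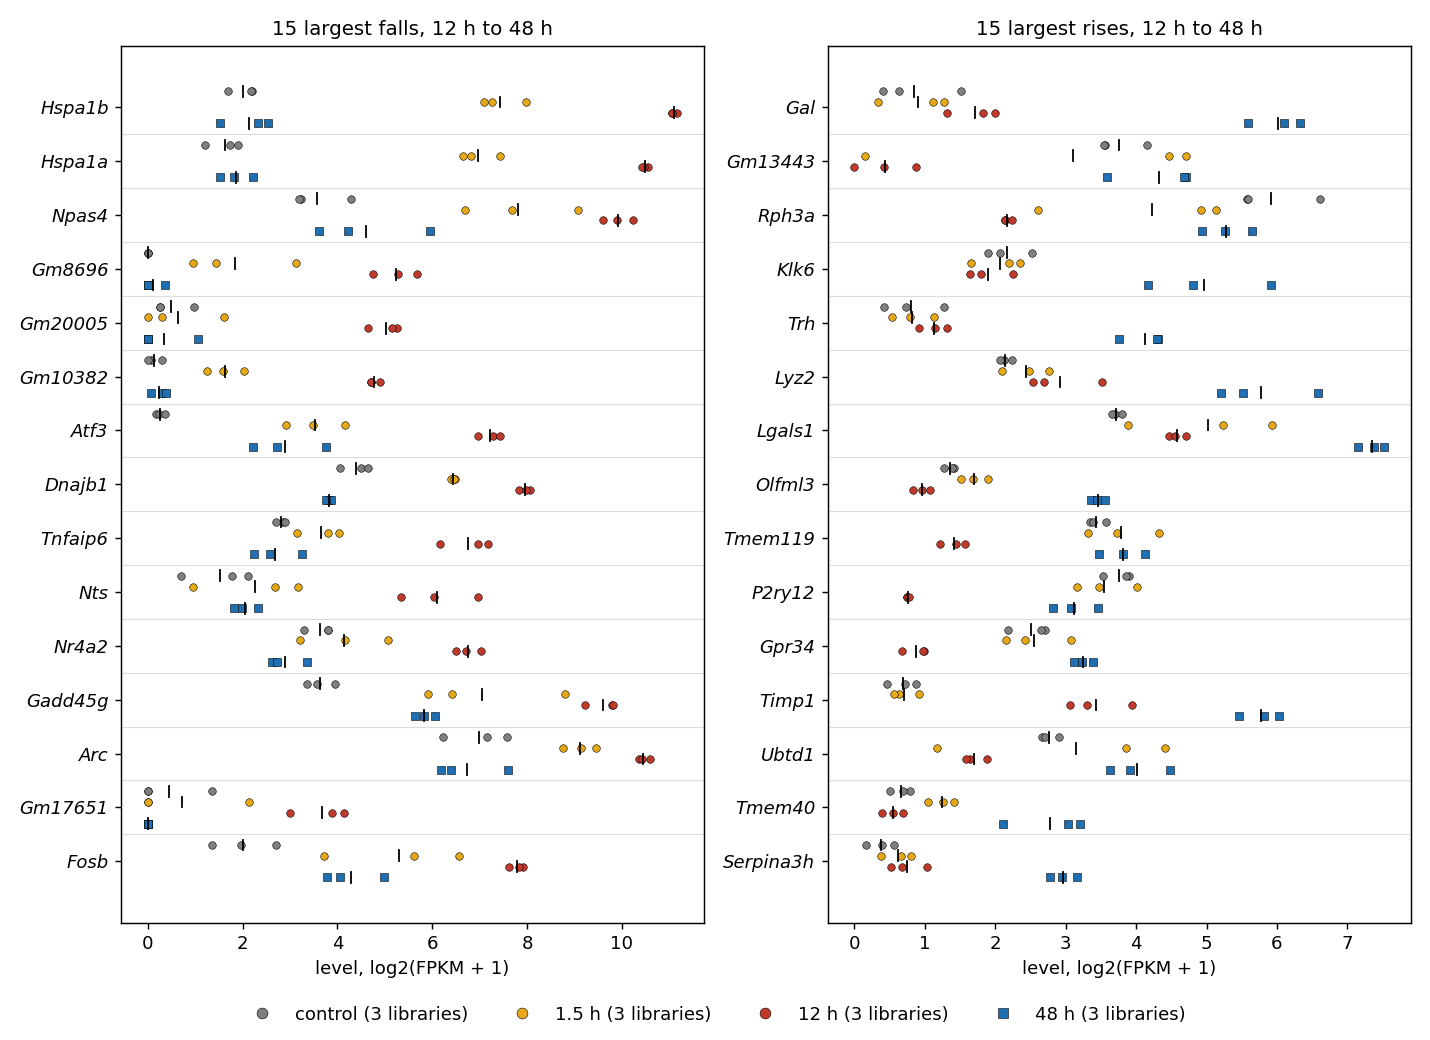
Level on the x axis, as log2(FPKM + 1), of the 15 genes with the largest falls (left) and the 15 with the largest rises (right) from 12 h to 48 h. Each point is a library, coloured by group with the 48 h libraries as squares, and vertical ticks mark group means. For Hspa1b the 12 h points stand far right of the control and 48 h points, and for Gal the 48 h points stand right of all the others.

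Among the 15 largest falls were predicted or noncoding genes beside protein-coding genes. Gm8696 (chr17:34954328-34954712, minus strand) lies 1724 bases from Hspa1b on the same strand, and it stood at 50.4, 25.7 and 37.8 FPKM at 12 h and 0.277, 0 and 0 FPKM at 48 h (log2 change -5.12, SE 0.24, adjusted p = 0.00014). Gm20005 lies 5234 bases from Hsph1 on the other strand, with 24.01, 37.1 and 34.4 FPKM at 12 h and 0, 0 and 1.07 FPKM at 48 h (log2 change -4.66, SE 0.30, adjusted p = 0.00031). These 2 genes were at or below 1.07 FPKM in the 48 h and control libraries. Gm17651 overlaps Prkab2, a subunit of the energy sensor AMPK, by 782 bases on the other strand, and was listed at 0 in all 48 h libraries against 16.6, 13.8 and 6.98 FPKM at 12 h. Its log2 change of -3.67 depends on the added 1 FPKM and is no bound on the fold. Whether counting used strand is not given, so reads of Gm17651 and its overlapping partner cannot be told apart.

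Immediate early genes, which neurons switch on within minutes of activity, fell almost throughout. Of 47 tested members, 39 fell and 0 rose, with a median log2 change of -1.50, and 34 to 40 fell when any 1 library was left out. Npas4, a transcription factor induced by calcium entry, stood at 1206, 959.8 and 777 FPKM at 12 h and 17.8, 11.2 and 60.6 FPKM at 48 h. The 48 h libraries were all far below, but replicate 4 was the highest of them and above the controls at 8.08 to 18.6 FPKM. Its log2 change was -5.32 (SE 0.54, adjusted p = 0.0012). Arc, a regulator of glutamate receptor traffic, stood at 1308, 1365 and 1535 FPKM at 12 h and 72.3, 83.4 and 193 FPKM at 48 h (log2 change -3.72, SE 0.35, adjusted p = 0.00095). Arc at 48 h spread around the control range of 74.4 to 189 FPKM.

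All 9 tested AP-1 genes fell. Atf3, a stress-induced member of the wider family, stood at 154, 171 and 124 FPKM at 12 h and 12.6, 3.63 and 5.59 FPKM at 48 h. Unlike Arc, all 48 h values remained above the controls, which were 0.134 to 0.292 FPKM, and the log2 change was -4.33 (SE 0.36, adjusted p = 0.00063). Fos stood at 699, 553 and 376 FPKM at 12 h and 46.5, 34.5 and 101 FPKM at 48 h (log2 change -3.25, SE 0.40, adjusted p = 0.0023), with replicate 4 again the highest 48 h library. Fosb changed by -3.52 (SE 0.29, adjusted p = 0.00061), Junb by -2.02 (SE 0.28, adjusted p = 0.0035) and Jun by -1.63 (SE 0.13, adjusted p = 0.00061). Of the EGR and NR4A factors, 6 of 7 fell, led by Nr4a2, which was below its control values of 8.88 to 12.98 FPKM in 2 of the 48 h libraries: it stood at 104, 129 and 90.2 FPKM and then 5.13, 5.61 and 9.29 FPKM (log2 change -3.85, SE 0.22, adjusted p = 0.00023). Egr1 stood at 463, 351 and 383 FPKM and then 40.7, 47.03 and 117 FPKM (log2 change -2.69, SE 0.37, adjusted p = 0.0036).

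Among genes that follow activity, 10 of 12 fell, among them Bdnf, a neurotrophin, at 37.6, 47.1 and 35.5 FPKM and then 14.5, 13.6 and 17.3 FPKM (log2 change -1.34, SE 0.14, adjusted p = 0.0013). Bdnf at 48 h was still above its control range of 2.31 to 3.76 FPKM. Of 7 MAP kinase phosphatases, which switch off the kinases that induce these genes, 6 fell. Of 36 genes of the list with a promoter window, 31 fell, and the cAMP response element TGACGTCA was found in 4 of these 31: Btg2, Pcsk1, Plk2 and Dusp1. The call of Btg2 was lost without any 1 library other than 48 h replicates 1 and 4. The same letters were found in 1.79% of all windows, with both strands searched. Promoters of Npas4, Gal, Klk6 and Trh held none of the motifs searched. Nor did the window of Atf3, but its start lies 34706 bases from the deposited start of the gene. The promoter of Rph3a held the AP-1 site TGANTCA, which was found in 7.81% of all windows. Only these exact letters were searched, so near matches were missed and such sites are not shown to be absent.

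Genes of growth arrest mostly fell or were not called, and those of unfolded-protein stress went in both directions. In the list of p53 targets and cell death genes 10 of 32 fell, and 4 fell without 12 h replicate 1, 3 without 12 h replicate 2 and 6 without the unnumbered 12 h library. Of its 12 p53 targets 7 fell, among them Gadd45g, a growth-arrest gene that neuronal activity also induces, at 892, 893 and 598 FPKM and then 55.7, 48.6 and 65.4 FPKM (log2 change -3.77, SE 0.20, adjusted p = 0.00022). Cdkn1a, the cell cycle inhibitor p21, stood at 53.8, 44.3 and 40.5 FPKM and then 17.7, 40.4 and 33.8 FPKM, which did not pass (log2 change -0.65, adjusted p = 0.14). All 48 h values of Cdkn1a lay above its control range of 2.88 to 8.596 FPKM. Of 10 targets of ATF4, the factor of the integrated stress response, 6 fell and 0 rose. Chac1, which degrades glutathione, changed by -1.34 (SE 0.17, adjusted p = 0.0026) and Ppp1r15a, which restores translation, by -1.36 (SE 0.14, adjusted p = 0.0013). In contrast, 4 of 11 chaperones of the endoplasmic reticulum rose and 0 fell: Calr by 0.72 (SE 0.12, adjusted p = 0.0072), Manf by 0.61 (SE 0.11, adjusted p = 0.01), Sdf2l1 by 0.55 (SE 0.13, adjusted p = 0.023) and Pdia6 by 0.50 (SE 0.13, adjusted p = 0.033). The call of Sdf2l1 was lost without any 1 library other than 12 h replicate 2 and 48 h replicate 1, and that of Pdia6 without any 1 library other than 48 h replicates 1 and 3 (highest adjusted p 0.27 and 0.11). Of 3 sensors of unfolded-protein stress 2 fell and 0 rose, and of 8 transcription factors of these responses 2 rose and 2 fell. Nupr1, a stress-induced chromatin protein, rose from 1.08, 0.986 and 1.399 FPKM to 7.11, 8.84 and 10.1 FPKM (log2 change 2.16, SE 0.15, adjusted p = 0.00034).

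Glucocorticoid-induced genes and clock genes were lower at 48 h. Of 16 tested glucocorticoid targets, 11 fell and 0 rose, with a median log2 change of -1.01. Errfi1, an inhibitor of EGF receptor signalling, stood at 76.98, 81.1 and 68.4 FPKM at 12 h and 14.04, 17.4 and 17.8 FPKM at 48 h (log2 change -2.14, SE 0.12, adjusted p = 0.00024). Pdk4, which restrains pyruvate use, stood at 12.5, 9.02 and 8.496 FPKM and then 2.13, 1.15 and 2.29 FPKM (log2 change -1.95, SE 0.20, adjusted p = 0.0013), below its control range of 3.04 to 6.19 FPKM. Of 19 clock genes 9 fell and 0 rose, with a median of -0.47. Per1, which belongs to both lists, stood at 63.8, 52.3 and 43.9 FPKM and then 17.1, 11.3 and 13.9 FPKM (log2 change -1.85, SE 0.18, adjusted p = 0.0011), and all its 48 h values lay below the controls at 24.5 to 34.97 FPKM. Npas2 changed by -1.16 (SE 0.10, adjusted p = 0.00073), Cry1 by -0.90 (SE 0.13, adjusted p = 0.0049) and Ciart, a repressor of the clock, by -1.51 (SE 0.26, adjusted p = 0.0079). Arntl, which encodes BMAL1, changed by -0.47 (SE 0.10, adjusted p = 0.015), a call lost without 12 h replicate 1, 12 h replicate 2 or 48 h replicate 4 (highest adjusted p 0.067). Dbp, a clock output gene, stood at 9.48, 6.93 and 6.06 FPKM and then 12.1, 8.45 and 9.997 FPKM, which overlap, and did not pass (log2 change 0.41, adjusted p = 0.14). The clock time of collection is not given, and it cannot be told apart from the time after treatment.

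Chemokines and cytokines divided between genes that were higher at 12 h and genes that were higher at 48 h. Of 59 tested members of this list, 18 fell and 11 rose. Falls numbered 26 without 48 h replicate 1, 10 without 12 h replicate 1 and 12 without 12 h replicate 2 or either of the other 48 h libraries. Rises numbered 7 without 12 h replicate 1 and 6 without 12 h replicate 2, the unnumbered 12 h library or 48 h replicate 4. Ccl3, a chemokine made by activated microglia and macrophages, stood at 64.03, 56.3 and 61.2 FPKM at 12 h and 8.43, 3.21 and 5.42 FPKM at 48 h (log2 change -3.28, SE 0.26, adjusted p = 0.00058). Ccl4, a close relative, stood at 61.3, 69.5 and 68.7 FPKM and then 7.85, 3.81 and 8.15 FPKM (log2 change -3.21, SE 0.24, adjusted p = 0.00047). Both stayed above the controls, which did not exceed 0.0747 FPKM for Ccl3 and 0.0858 FPKM for Ccl4. The neutrophil chemokine genes Cxcl1 and Cxcl2 were among the members that fell.

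Ccl12, a ligand of CCR2 on monocytes, moved the other way, from 4.08, 3.69 and 5.38 FPKM to 18.8, 16.8 and 16.3 FPKM (log2 change 1.77, SE 0.14, adjusted p = 0.00047). Ccl5 was near 0 at 12 h and stood at 0.612, 0.967 and 1.89 FPKM at 48 h (log2 change 1.002, SE 0.21, adjusted p = 0.016), a call lost without any 1 of the 12 h libraries (highest adjusted p 0.052). Ccl2, the other main CCR2 ligand, stood at 7.300, 6.04 and 9.88 FPKM and then 7.36, 2.400 and 3.37 FPKM. Its values overlap, since 48 h replicate 1 was as high as the 12 h libraries, and the change did not pass (log2 change -0.79, adjusted p = 0.12). Without that library Ccl2 changed by -1.16 (adjusted p = 0.0096). Of 8 interleukin genes 5 fell, among them Il6 (log2 change -1.36, SE 0.18, adjusted p = 0.0033) and Il1b (log2 change -0.86, SE 0.19, adjusted p = 0.017), a call of Il1b that was lost without 12 h replicate 1. Il6 was listed at 0 in all control and 1.5 h libraries and stood at 1.48, 2.32 and 2.59 FPKM at 12 h. Tnf changed by -0.64 (SE 0.16, adjusted p = 0.027), a call lost without any 1 library other than the unnumbered 12 h library and 48 h replicate 1 (highest adjusted p 0.094). Ccl11, an eosinophil chemokine, was uneven at 48 h: it stood at 5.53, 0 and 0.0492 FPKM at 48 h against 9.398, 11.3 and 15.8 FPKM at 12 h (log2 change -2.76, SE 0.68, adjusted p = 0.026), with the value of 48 h replicate 1 alone far from 0. The call of Ccl11 was lost without any 1 of the other 5 libraries (highest adjusted p 0.08).

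NF-kB, the factor that drives many of these genes, also induces its own inhibitors. Of 13 tested subunits and inhibitors, 8 fell and 0 rose. Nfkbiz stood at 8.98, 6.84 and 7.06 FPKM at 12 h and 2.32, 2.07 and 2.63 FPKM at 48 h (log2 change -1.36, SE 0.13, adjusted p = 0.00099), and Nfkbia, which encodes IkB-alpha, changed by -1.01 (SE 0.11, adjusted p = 0.0013). Of 12 pattern receptors, the sensors upstream, 3 rose, 2 fell (Cd14 and Nlrp3) and 7 were not called. Tlr2 and Tlr7, receptors for bacterial lipoproteins and RNA, rose by 1.24 and 0.86 on the log2 scale (adjusted p = 0.0088 and 0.0025). The prostaglandin synthases moved apart. Ptgs2, the inducible cyclooxygenase, stood at 127, 103 and 80.5 FPKM and then 27.8, 23.6 and 38.1 FPKM (log2 change -1.76, SE 0.22, adjusted p = 0.0024). Ptgs1, the constitutive enzyme found in microglia, stood at 5.32, 3.72 and 2.49 FPKM and then 7.903, 19.6 and 16.4 FPKM (log2 change 1.65, SE 0.34, adjusted p = 0.014), with the rise lost without 12 h replicate 2 or 48 h replicate 4 (highest adjusted p 0.052). Tnfaip6, a secreted hyaluronan-binding protein, was among the 15 largest falls, at 143, 123 and 70.8 FPKM and then 4.93, 3.71 and 8.47 FPKM (log2 change -4.08, SE 0.32, adjusted p = 0.00055).

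Interferon-stimulated genes and genes of antigen presentation were higher at 48 h. Of 27 tested interferon-stimulated genes, 16 rose and 0 fell, with a median log2 change of 0.76. The count of rises ranged from 4 without 12 h replicate 2 to 20 without 48 h replicate 1, and 0 fell in every one of these fits. Bst2, a membrane protein that tethers viruses, stood at 4.86, 3.36 and 4.59 FPKM at 12 h and 14.7, 20.1 and 23.2 FPKM at 48 h (log2 change 1.93, SE 0.19, adjusted p = 0.001). Isg15, a ubiquitin-like modifier, stood at 3.08, 3.61 and 2.08 FPKM and then 8.19, 14.2 and 22.7 FPKM (log2 change 1.95, SE 0.33, adjusted p = 0.0074). Irf7, the factor that amplifies interferon production, changed by 1.37 (SE 0.32, adjusted p = 0.022), a call lost without any 1 of the 12 h libraries or without 48 h replicate 3 (highest adjusted p 0.07). In all 3 genes, 48 h replicate 1 was the lowest 48 h library and still above every 12 h value.

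Of 14 genes of antigen presentation 9 rose and 0 fell, a count that was 1 without 12 h replicate 2 or without 48 h replicate 4. B2m, the light chain of class I molecules, stood at 45.3, 50.3 and 49.1 FPKM and then 80.6, 93.4 and 107 FPKM (log2 change 0.93, SE 0.13, adjusted p = 0.0035). The class II chain H2-Ab1 stood at 0.893, 0.643 and 0.652 FPKM and then 1.37, 3.04 and 2.28 FPKM (log2 change 0.87, SE 0.20, adjusted p = 0.02), with a call lost without 12 h replicate 2, the unnumbered 12 h library or 48 h replicate 4 (highest adjusted p 0.071). Of 15 tested complement genes 8 rose and 0 fell. Without 12 h replicate 2, 5 rose, and without 48 h replicate 1, 8 rose and 2 fell. C1qa, C1qb and C1qc encode the chains of C1q, which microglia make. C1qa stood at 57.3, 55.5 and 53.1 FPKM and then 193, 229.7 and 216 FPKM, a change of 1.92 (SE 0.11, adjusted p = 0.00024), and C1qb and C1qc changed by 1.51 (SE 0.11, adjusted p = 0.00038) and 1.75 (SE 0.10, adjusted p = 0.00023). In the controls C1qa was 34.6 to 36.8 FPKM, below both time points.

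Homeostatic microglial genes had the highest median of the lists with at least 10 tested members, at a log2 change of 1.29. Of 19 tested members 14 rose and 1 fell, and 12 to 14 rose when any 1 library was left out. P2ry12, the ADP receptor that steers microglial processes, stood at 0.679, 0.681 and 0.715 FPKM at 12 h and 6.08, 10.02 and 7.47 FPKM at 48 h. The 12 h values were far below the controls at 10.5 to 13.95 FPKM and the 48 h values were also below them, though much closer, with a log2 change of 2.36 (SE 0.16, adjusted p = 0.00038). Tmem119, a membrane protein specific to microglia within the brain, stood at 1.32, 1.71 and 1.98 FPKM and then 10.1, 16.5 and 13.1 FPKM (log2 change 2.398, SE 0.18, adjusted p = 0.00047). Its 48 h values reached or passed the control range of 9.18 to 10.9 FPKM. Gpr34, a lysophospholipid receptor, stood at 0.604, 0.978 and 0.962 FPKM and then 8.403, 9.44 and 7.64 FPKM (log2 change 2.36, SE 0.13, adjusted p = 0.00022), and Olfml3, a secreted matrix protein, at 0.949, 0.784 and 1.101 FPKM and then 9.297, 10.8 and 9.87 FPKM (log2 change 2.500, SE 0.11, adjusted p = 0.00013).

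The receptor genes Csf1r and Cx3cr1, on which microglia depend for survival and for contact with neurons, changed by 1.29 (SE 0.09, adjusted p = 0.00045) and 1.54 (SE 0.16, adjusted p = 0.0014). The adapter pair Trem2 and Tyrobp changed by 1.88 (SE 0.10, adjusted p = 0.00022) and 1.42 (SE 0.13, adjusted p = 0.00089). Trem2 was above its control range of 2.15 to 2.71 FPKM in all 48 h libraries, at 8.54, 9.33 and 8.22 FPKM. Mertk, a receptor for dying cells that astrocytes also express, was the member that fell (log2 change -0.82, SE 0.15, adjusted p = 0.0097). The summed FPKM of the 20 homeostatic genes was 159 to 180.5 at 12 h, 303 to 396 at 48 h and 162 to 215 in the controls.

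Genes of activated and disease-associated microglia rose in 15 of 29 tested members, and 1 fell, with a median of 0.74. Lyz2, the lysozyme of macrophages, stood at 4.798, 5.46 and 10.5 FPKM at 12 h and 95.2, 35.9 and 44.6 FPKM at 48 h (log2 change 2.85, SE 0.39, adjusted p = 0.0035), with 48 h replicate 1 more than 2-fold above the other 48 h libraries. Cd52 stood at 1.29, 1.36 and 1.96 FPKM and then 6.25, 11.3 and 8.79 FPKM (log2 change 1.93, SE 0.20, adjusted p = 0.0014). Aif1, which encodes IBA1, stood at 2.26, 2.26 and 2.05 FPKM and then 5.71, 12.7 and 9.97 FPKM (log2 change 1.65, SE 0.24, adjusted p = 0.0044), and here replicate 1 was the lowest of the 48 h libraries. Apoe, a lipid carrier of astrocytes and activated microglia, was the member that fell, at 613, 631 and 645 FPKM and then 425, 353 and 373 FPKM (log2 change -0.72, SE 0.15, adjusted p = 0.015), a call lost without any 1 library other than 48 h replicates 1 and 3 (highest adjusted p 0.11). Spp1, osteopontin, stood at 112, 114 and 203 FPKM and then 1109, 220.1 and 431 FPKM. All 48 h values of Spp1 were above all 12 h values and above the controls at 0.771 to 3.51 FPKM, with replicate 1 far above the others, and the change missed the threshold (log2 change 1.77, SE 0.55, adjusted p = 0.053). Spp1 changed by 1.16 (adjusted p = 0.05) without that library and by 2.32 (adjusted p = 0.023) without 48 h replicate 3, where it passed, as it did with limma-voom.

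Fc receptors and other phagocyte surface genes rose in 12 of 20 tested members and 1 fell. Cd44, a hyaluronan receptor, stood at 4.31, 3.14 and 5.63 FPKM and then 13.5, 7.98 and 12.3 FPKM (log2 change 1.19, SE 0.23, adjusted p = 0.011), and Fcgr4, an activating Fc receptor, at 1.16, 1.73 and 1.600 FPKM and then 3.15, 6.22 and 4.28 FPKM (log2 change 1.12, SE 0.21, adjusted p = 0.01). The costimulatory gene Cd86 fell (log2 change -0.70, SE 0.12, adjusted p = 0.0079). Lysosomal genes rose in 17 of 25 tested members and 0 fell, with a median of 0.66, and 11 rose without 12 h replicate 2. Cathepsins and other hydrolases made up 15 of these rises among 16 tested. Ctsd, an aspartic protease, stood at 101, 108 and 109 FPKM and then 324, 232 and 296 FPKM (log2 change 1.401, SE 0.15, adjusted p = 0.0015), and Gusb, a glucuronidase, at 2.15, 2.62 and 2.69 FPKM and then 11.97, 8.900 and 9.06 FPKM (log2 change 1.65, SE 0.14, adjusted p = 0.00063). Of 6 subunits of the phagocyte NADPH oxidase 4 rose, led by Ncf1 (log2 change 1.42, SE 0.18, adjusted p = 0.0026), Rac2 (log2 change 1.11, SE 0.16, adjusted p = 0.0039) and Cyba (log2 change 1.101, SE 0.16, adjusted p = 0.0044).

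Markers of blood leukocytes were mostly below the minimum level. Of 36 listed markers only 11 passed the minimum level: 6 of these fell and 3 rose. Their summed FPKM over all 36 was 47.8 to 57.5 at 12 h, 25.4 to 57.8 at 48 h and 16.2 to 19.95 in the controls. The neutrophil marker Ly6g was listed at 0 in every library of the control, 1.5 h and 12 h groups, and Camp in all of 12 h and 48 h. S100a9, a calcium-binding protein of neutrophils, stood at 6.24, 3.204 and 13.96 FPKM at 12 h and 0.920, 0.105 and 0 FPKM at 48 h (log2 change -2.58, SE 0.46, adjusted p = 0.0086). S100a8, its partner, stood at 4.21, 1.43 and 5.61 FPKM and then 1.69, 0.394 and 0.230 FPKM, which overlap, and its call at adjusted p = 0.05 was lost without any 1 library other than 12 h replicate 2 and 48 h replicate 1 (highest adjusted p 0.15). The monocyte sum at 48 h ran from 9.797 to 41.03 FPKM, its highest value being above the 12 h values of 22.5 to 26.6 FPKM. The neutrophil sum was 6.81 to 22.8 FPKM at 12 h and 3.24 to 6.53 FPKM at 48 h. The sum of T and NK cell markers was 6.05 to 12.4 and then 1.42 to 2.29 FPKM, but most of it in each 12 h library was the single gene Cd3e. Of these 11 markers only 3 passed the minimum level: Cd3e and Cd4 fell, and Ccl5 rose. The B cell sum was 5.58 to 6.94 and then 6.82 to 9.87 FPKM. The part of leukocytes in the rise of microglial and lysosomal genes was not tested.

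Astrocyte genes split by function. Of 34 tested genes of reactive astrocytes 12 rose and 8 fell, with a median of 0.16 that changed sign between alternatives and was -0.10 without 48 h replicate 1. Gfap, the main intermediate filament of astrocytes, stood at 167, 141 and 179 FPKM at 12 h and 632, 437 and 534 FPKM at 48 h. Every 48 h library was more than 2-fold above every 12 h library, both were far above the controls at 12.7 to 26.4 FPKM, and the log2 change was 1.704 (SE 0.18, adjusted p = 0.0014). Vim, vimentin, stood at 40.5, 30.2 and 38.3 FPKM and then 183, 103 and 144 FPKM (log2 change 1.92, SE 0.22, adjusted p = 0.0017). Timp1, an inhibitor of matrix proteases, stood at 8.91, 7.32 and 14.4 FPKM and then 64.5, 42.9 and 55.3 FPKM (log2 change 2.33, SE 0.24, adjusted p = 0.0013), and Tgm1, a transglutaminase, at 7.48, 4.19 and 4.19 FPKM and then 41.5, 16.5 and 17.3 FPKM (log2 change 1.96, SE 0.36, adjusted p = 0.01).

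Secreted genes of reactive astrocytes went in both directions. Serpina3n, a protease inhibitor, rose by 0.94 on the log2 scale (adjusted p = 0.016), a call lost without 12 h replicate 2. Lcn2, an iron-carrier protein, stood at 3.497, 2.64 and 4.33 FPKM and then 15, 4.25 and 7.61 FPKM, with an overlap and no call (adjusted p = 0.086). The secreted genes Cyr61 and Thbs1 fell: Cyr61, a matricellular protein that YAP and growth factors induce, stood at 236, 164 and 136 FPKM and then 26.99, 13.1 and 17.9 FPKM (log2 change -3.16, SE 0.29, adjusted p = 0.0008), and Thbs1, thrombospondin 1, at 19.2, 15.1 and 12.7 FPKM and then 6.22, 1.27 and 1.26 FPKM (log2 change -2.304, SE 0.44, adjusted p = 0.011). The S100 family followed the filaments in part, with 5 of 9 tested genes higher: S100a10 changed by 1.69 (SE 0.18, adjusted p = 0.0013), S100a6 by 1.67 (SE 0.18, adjusted p = 0.0015) and S100a11 by 1.42 (SE 0.26, adjusted p = 0.0094).

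Of 22 tested homeostatic astrocyte genes 11 fell, 1 rose and 10 were not called, with a median of -0.48. Slc1a2 and Slc1a3, the glutamate transporters GLT-1 and GLAST, stood at 178, 145 and 143 FPKM and 60.6, 50.1 and 55.2 FPKM at 12 h, and at 69.8, 66.7 and 88.9 FPKM and 37.9, 32.5 and 37.7 FPKM at 48 h. Neither overlapped, with log2 changes of -1.04 (SE 0.15, adjusted p = 0.0046) and -0.60 (SE 0.12, adjusted p = 0.011), and both lay below their control ranges of 140.4 to 162 and 45.9 to 49.03 FPKM. Glul, glutamine synthetase, changed by -1.15 (SE 0.16, adjusted p = 0.0034), and Aldoc, the astrocyte aldolase, by -1.06 (SE 0.11, adjusted p = 0.0012). Aqp4, the water channel of astrocyte endfeet, was the only member that rose, from 11.3, 12.2 and 13.6 FPKM to 43.6, 23.9 and 35.01 FPKM (log2 change 1.36, SE 0.21, adjusted p = 0.0051). Aqp4 at 12 h was within the control range of 10.1 to 13.6 FPKM.

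**Figure D3:**
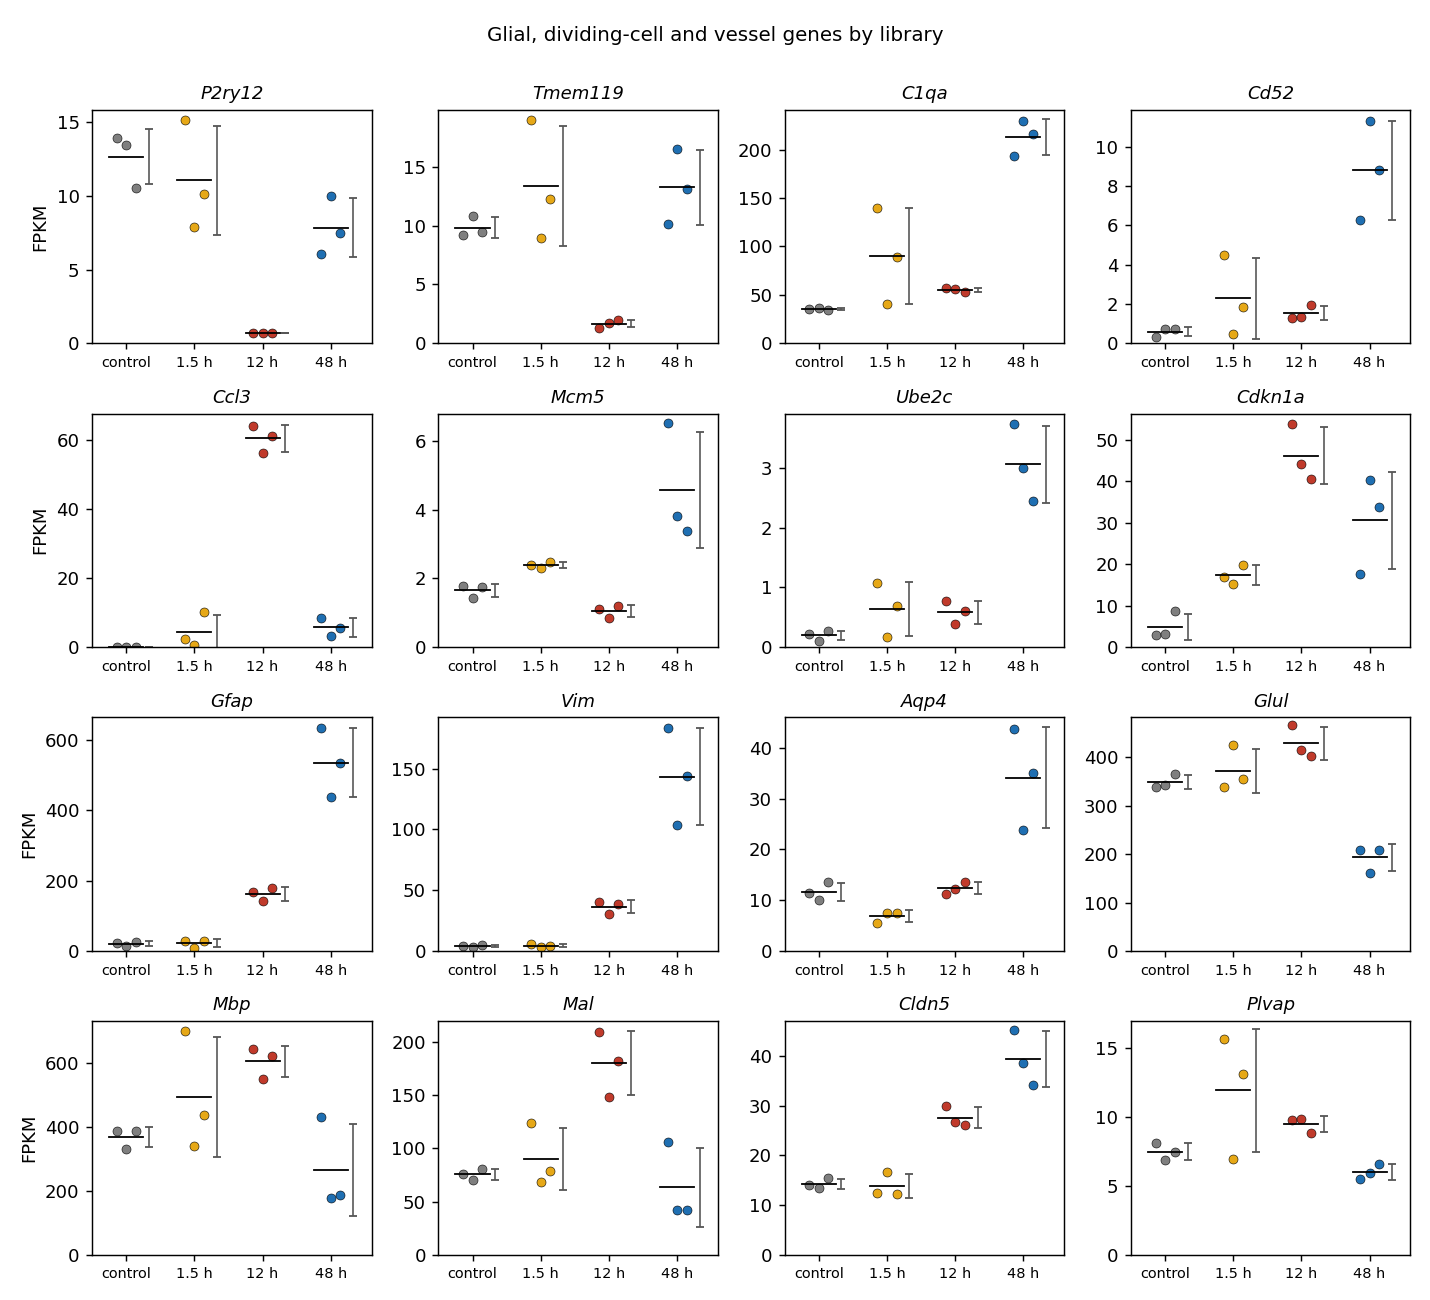
FPKM on linear axes from 0, a panel for each of 16 genes of glia, dividing cells and vessels. Points are the 3 libraries of each group, horizontal lines are means and bars are SD. P2ry12 and Tmem119 are lowest at 12 h, Gfap, Vim, Aqp4, C1qa and Cd52 are highest at 48 h, Ccl3 is highest at 12 h, and for Mbp and Mal 48 h replicate 1 lies above the other 48 h libraries.

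Cell division genes rose at 48 h. Of 53 tested genes of the cell cycle and DNA replication 32 rose and 3 fell, with a median of 0.72, and 19 rose without 12 h replicate 2. Some members, among them Mki67, Cdk1 and Top2a, passed the minimum level only through 48 h, where the filter favours a rise. The counts for this list and its phases include such members and are not given without them. Mki67, a marker of dividing cells, stood at 0.304, 0.185 and 0.268 FPKM at 12 h and 3.34, 1.67 and 1.43 FPKM at 48 h. The 48 h values were all above every 12 h value and every control value (0.0901 to 0.224 FPKM), replicate 1 being the highest, and the log2 change was 1.28 (SE 0.22, adjusted p = 0.0077). The mitotic kinase Cdk1 stood at 0.296, 0.176 and 0.127 FPKM and then 2.34, 1.78 and 1.27 FPKM (log2 change 1.21, SE 0.16, adjusted p = 0.0033), and Top2a, which untangles chromosomes, at 0.391, 0.186 and 0.334 FPKM and then 3.48, 1.61 and 1.59 FPKM (log2 change 1.26, SE 0.22, adjusted p = 0.0087). Of 24 genes of G2 and mitosis 17 rose, and of 22 of S phase 12 rose, among them the helicase subunits Mcm5 (log2 change 1.404, SE 0.21, adjusted p = 0.0046) and Mcm3 (log2 change 1.31, SE 0.21, adjusted p = 0.0061). No gene of these 2 phases fell.

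G1 regulators were mixed, with 3 up and 3 down of 7. Ccnd1, cyclin D1, rose from 7.95, 8.103 and 8.25 FPKM to 21.3, 19.3 and 12.9 FPKM (log2 change 1.02, SE 0.18, adjusted p = 0.0078), while the inhibitor Cdkn1b, p27, fell (log2 change -0.77, SE 0.12, adjusted p = 0.0062). Ccnd2 and Cdk6 fell by less (-0.42 and -0.42), and both calls were lost without any 1 library other than 48 h replicate 1 (highest adjusted p 0.089 and 0.18). Replication-dependent histone genes, whose transcripts peak in S phase and lack a poly(A) tail, moved against the S phase genes: 5 of 10 tested fell and 0 rose, with a median of -0.71. Hist1h1b was listed at 0 in all 48 h libraries and stood at 2.24, 3.502 and 2.45 FPKM at 12 h, and Hist1h4d changed by -1.13 (SE 0.12, adjusted p = 0.0014). How RNA was selected for sequencing is not given.

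Because PDT acts through heme precursors, the enzymes of heme synthesis were examined. Of 26 tested genes of heme and iron 5 rose and 0 fell, with a median of 0.07. Without 48 h replicate 1, 6 rose and 3 fell, and 1 rose without any 1 of the 12 h libraries and 2 without 48 h replicate 4. Urod and Fech, the enzymes that decarboxylate uroporphyrinogen and insert iron into protoporphyrin IX, changed by 0.60 (SE 0.16, adjusted p = 0.036) and 0.35 (SE 0.10, adjusted p = 0.036). The call of Fech was lost without any 1 library other than 48 h replicate 1, and that of Urod held also without 48 h replicate 3 (highest adjusted p 0.14 and 0.14).

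Alas1, the rate-limiting synthase that 5-ALA bypasses, stood at 10.2, 9.12 and 9.22 FPKM and then 9.65, 10.1 and 10.9 FPKM, which overlap (log2 change 0.10, adjusted p = 0.49). Alad and Uros did not pass either, at 0.23 and 0.22. Abcg2, an exporter of porphyrins at the vessel wall, stood at 1.12, 1.32 and 1.21 FPKM and then 2.63, 1.81 and 2.04 FPKM (log2 change 0.50, SE 0.13, adjusted p = 0.03), and Trf, transferrin, at 5.105, 6.400 and 7.43 FPKM and then 22.98, 9.89 and 11.6 FPKM (log2 change 1.04, SE 0.29, adjusted p = 0.038). Both calls were lost without any 1 library other than 48 h replicates 1 and 3 (highest adjusted p 0.091 and 0.12). Hmox1, the enzyme that breaks heme down, stood at 43.2, 31.7 and 41.9 FPKM and then 99.1, 19.8 and 14.4 FPKM. In 48 h replicate 1 it was above and in the other 48 h libraries below all 12 h values, so no direction can be given (log2 change -0.32, SE 0.63, adjusted p = 0.74). Without replicate 1 the change was -1.14 (adjusted p = 0.0069). Among metal and redox genes, the metallothioneins Mt1 and Mt2 fell by -0.87 and -1.31 on the log2 scale (adjusted p = 0.0078 and 0.0035), and Txnip, an inhibitor of thioredoxin, by -1.59 (adjusted p = 0.017), a call of Txnip that was lost without 48 h replicate 3 or 4.

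Vessel genes were lower for angiogenic signals and higher for mural cells. Of 18 angiogenic genes 7 fell and 1 rose. Angpt2, which loosens endothelial contacts, stood at 9.798, 8.897 and 8.44 FPKM at 12 h and 1.43, 1.199 and 1.07 FPKM at 48 h. All 48 h values remained above the controls at 0.154 to 0.496 FPKM, and the log2 change was -2.17 (SE 0.11, adjusted p = 0.00019). Angptl4 changed by -1.45 (SE 0.20, adjusted p = 0.0038), Adamts1 by -1.44 (SE 0.24, adjusted p = 0.0077) and Vegfa by -0.70 (SE 0.12, adjusted p = 0.0069). Targets of the hypoxia factor HIF fell in 6 of 11, led by P4ha1, a collagen prolyl hydroxylase (log2 change -1.18, SE 0.13, adjusted p = 0.0015), and Adm, adrenomedullin (log2 change -1.05, SE 0.18, adjusted p = 0.0079), whereas limma called 0 of 11 glycolytic enzymes, with 1 higher and 1 lower at an unadjusted p under 0.05. The whole list of hypoxia and glycolysis had 0 rises, but 5 without 48 h replicate 1. Without 48 h replicate 1, 18 of the 47 tested endothelial genes fell, against 10 with it and 6 without 48 h replicate 3.

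The leukocyte adhesion receptor Icam1 stood at 4.56, 3.14 and 3.72 FPKM and then 2.17, 0.839 and 0.769 FPKM (log2 change -1.13, SE 0.24, adjusted p = 0.016), a call lost without 12 h replicate 1, 48 h replicate 3 or 48 h replicate 4 (highest adjusted p 0.059). The junction genes of the endothelium, Pecam1 and Cdh5, overlapped between the groups and did not pass, at -0.78 and -1.15, with 48 h replicate 1 the highest 48 h library in both. Without it Pecam1 changed by -1.16 (adjusted p = 0.0013) and Cdh5 by -1.58 (adjusted p = 0.0074). Endothelial genes that rose included Itm2a (log2 change 1.53, SE 0.23, adjusted p = 0.0048), Tek, the angiopoietin receptor (log2 change 0.96, SE 0.27, adjusted p = 0.039), and Vwf, von Willebrand factor (log2 change 0.96, SE 0.29, adjusted p = 0.049). The calls of Tek and Vwf were lost without any 1 library other than 48 h replicates 1 and 3 (highest adjusted p 0.11 and 0.13).

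Of 31 tested blood-brain barrier genes 9 rose and 6 fell, with 8 rises and 10 falls without 48 h replicate 1. Rises numbered 3 or 4 without any 1 of the 12 h libraries or without 48 h replicate 4, and falls 3 or 4 without any 1 library other than 48 h replicate 1. Of 13 transporters 5 rose and 3 fell. The organic anion carriers Slc22a8 and Slco2b1 rose, Slc22a8 from 0.306, 0.321 and 0.235 FPKM to 2.66, 1.16 and 2.07 FPKM (log2 change 1.17, SE 0.19, adjusted p = 0.0071) and Slco2b1 by 0.85 (SE 0.15, adjusted p = 0.0081). Both had been below their control ranges of 2.84 to 3.22 and 2.01 to 2.19 FPKM at 12 h. The glucose transporter Slc2a1 fell from 65.7, 49.1 and 41.8 FPKM to 30.6, 25.6 and 24.9 FPKM (log2 change -0.90, SE 0.17, adjusted p = 0.011), and the amino acid carrier chain Slc3a2 by -0.59 (SE 0.10, adjusted p = 0.0072). Of the tight junction genes, Cldn5 rose and Tjp1 fell. Cldn5, the main claudin of brain vessels, stood at 29.99, 26.7 and 26.2 FPKM and then 45.3, 38.6 and 34.1 FPKM (log2 change 0.49, SE 0.13, adjusted p = 0.031). Tjp1, a scaffold that other cells also express, stood at 19.9, 19.04 and 18.4 FPKM and then 15.5, 10.9 and 11.4 FPKM (log2 change -0.58, SE 0.14, adjusted p = 0.023). The call of Tjp1 was lost without any 1 library other than 48 h replicate 1, and that of Cldn5 held also without 48 h replicate 4 (highest adjusted p 0.13 and 0.11). Ocln, occludin, did not pass (log2 change 0.20, adjusted p = 0.51), and Plvap, a marker of fenestrated vessels, fell (log2 change -0.58, SE 0.10, adjusted p = 0.0087).

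Pericyte and smooth muscle genes rose in 6 of 15 and fell in 1. Rgs5, a pericyte regulator of G proteins, stood at 8.44, 8.03 and 6.84 FPKM and then 27.96, 15.2 and 17.1 FPKM (log2 change 1.22, SE 0.21, adjusted p = 0.0084), and Vtn, vitronectin, at 6.15, 7.51 and 9.13 FPKM and then 29.2, 16.6 and 18.7 FPKM (log2 change 1.36, SE 0.22, adjusted p = 0.0064). Both were at or near their control ranges again at 48 h, 15.8 to 17.7 FPKM for Rgs5 and 15.4 to 18.99 FPKM for Vtn, with replicate 1 above. Mustn1, of smooth muscle, rose by 2.06 on the log2 scale (adjusted p = 0.00024). Fibroblast genes rose in 5 of 12 (3 without the unnumbered 12 h library) and fell in 1, led by Crabp2, a retinoic acid carrier, at 1.26, 1.59 and 2.28 FPKM and then 6.703, 11.7 and 11.7 FPKM (log2 change 2.003, SE 0.23, adjusted p = 0.0018). In the extracellular matrix list 13 of 66 rose and 8 fell, with 17 falls without 48 h replicate 1 and 7 rises without 12 h replicate 2 or the unnumbered 12 h library. Matrix proteins made up 5 of the rises, among them Bgn, biglycan (log2 change 1.505, SE 0.27, adjusted p = 0.0085), and the proteases Adamts4 (log2 change -1.47, SE 0.28, adjusted p = 0.012) and Adamts1 were among the falls.

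The summed RNA of 15 myelin genes was lower at 48 h, least so in replicate 1. Of 28 tested genes of the oligodendrocyte lineage 5 fell and 0 rose, all 5 of them myelin genes. The fallen share of 17.9% was near the 14.3% over all tested genes, and among the 15 myelin genes it was 33.3%. Mbp, myelin basic protein, stood at 641, 549 and 620.4 FPKM at 12 h and 431, 177 and 187 FPKM at 48 h (log2 change -1.31, SE 0.33, adjusted p = 0.029). Replicate 1 was closer to the 12 h libraries than to the other 48 h libraries, and without it the change was -1.72 (adjusted p = 0.00067). The myelin genes Mobp and Mal changed by -1.53 (SE 0.36, adjusted p = 0.023) and -1.62 (SE 0.35, adjusted p = 0.017). The calls of Mbp and Mobp were lost without any 1 of the 5 libraries other than 48 h replicate 1, and that of Mal held also without 12 h replicate 2. The list's count was 15 without 48 h replicate 1 and 0 or 1 without any other library, so the size of this group depends on which libraries are used. Summed over 15 myelin genes, FPKM was 2050.3 to 2526 at 12 h, above the controls at 1112 to 1321. The sums at 48 h were 793.5, 818 and 1918 FPKM, all below the 12 h sums. The 13 precursor genes had 0 calls in limma, and 2 were higher and 1 was lower at an unadjusted p under 0.05.

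Among neuropeptides, 3 rose and 8 fell of 21 tested. Gal, galanin, a peptide induced by axon injury and by seizures (chr19:3409919-3414472, minus strand), had the largest rise of all tested genes. It stood at 2.99, 1.48 and 2.56 FPKM at 12 h and 47.3, 67.9 and 79.3 FPKM at 48 h, and at 0.325 to 1.85 FPKM in the controls. Its log2 change was 4.297 (SE 0.24, adjusted p = 0.00022), and the mean at 48 h was 27.7 times that at 12 h. Trh, thyrotropin-releasing hormone, stood at 1.201, 0.895 and 1.497 FPKM and then 18.8, 12.5 and 18.7 FPKM (log2 change 2.99, SE 0.18, adjusted p = 0.00024), and Npy, neuropeptide Y, at 101, 99.3 and 113 FPKM and then 246, 392 and 342 FPKM (log2 change 1.61, SE 0.19, adjusted p = 0.0019). Npy at 48 h was above its control range of 70.3 to 94.5 FPKM.

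Nts, neurotensin, fell from 39.7, 64.3 and 123 FPKM to 4.02, 2.98 and 2.52 FPKM (log2 change -4.07, SE 0.37, adjusted p = 0.00083), and 48 h values lay around the controls at 0.636 to 3.35 FPKM. Tac1, the substance P precursor, stood at 24.2, 28.8 and 40.7 FPKM and then 5.198, 3.31 and 4.496 FPKM (log2 change -2.58, SE 0.21, adjusted p = 0.0006), and Crh, corticotropin-releasing hormone, at 19.2, 20.9 and 18.7 FPKM and then 2.63, 4.84 and 4.28 FPKM (log2 change -2.096, SE 0.18, adjusted p = 0.00066). Oxt and Pomc, made by few hypothalamic neurons, fell as well (-1.44 and -1.07, adjusted p = 0.0042 and 0.0017). Peptides that rose and peptides that fell therefore both included genes of the hypothalamus list, in which 2 of 6 rose (Gal and Trh) and 2 fell (Oxt and Pomc).

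Rph3a, a RAB3 effector on synaptic vesicles, had the third largest rise, at 3.395, 3.42 and 3.71 FPKM at 12 h and 29.5, 48.9 and 37.4 FPKM at 48 h (log2 change 3.11, SE 0.17, adjusted p = 0.00022). Its control values were 96.4, 46.7 and 46.9 FPKM, and in the 1.5 h libraries it stood at 29.4, 5.095 and 34.2 FPKM. Low values thus occurred in all 12 h libraries and in 1.5 h replicate 2. Gm13443, a predicted gene, showed the same order: 16.9, 10.8 and 10.7 FPKM in the controls, 21.1, 0.110 and 25.2 FPKM at 1.5 h, 0.838, 0 and 0.339 FPKM at 12 h and 10.96, 25.1 and 24.7 FPKM at 48 h (log2 change 3.89, SE 0.34, adjusted p = 0.00072). Ubtd1, a ubiquitin-like protein, shared it, with 20.3, 1.24 and 13.5 FPKM at 1.5 h, 2.13, 1.99 and 2.67 FPKM at 12 h and 14.1, 21.4 and 11.4 FPKM at 48 h (log2 change 2.31, SE 0.21, adjusted p = 0.00089). Klk6, a secreted protease of oligodendrocytes, differed from these, being low in all other groups: 2.71 to 4.76 FPKM in the controls, 2.46, 2.13 and 3.78 FPKM at 12 h and 59.3, 16.9 and 26.99 FPKM at 48 h (log2 change 3.06, SE 0.41, adjusted p = 0.0032).

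Neuronal receptor and channel genes fell more often than they rose, 20 against 4 of 85 tested, with a median of -0.22. With 1 library left out, 8 to 20 fell. The shares were 23.5% fallen and 4.71% risen, against 14.3% and 10.7% over all tested genes. Long genes had a similar skew: in the longest of 4 equal length classes of all tested genes, 18.7% fell and 4.47% rose. After a correction for the length trend, 14 genes of the list fell and 8 rose, with a median of -0.10. The part of gene length in the falls of this list was not otherwise tested. Cacng3, an auxiliary subunit of AMPA receptors, stood at 48.9, 48.6 and 45.3 FPKM and then 8.92, 11.8 and 13.5 FPKM (log2 change -1.99, SE 0.15, adjusted p = 0.00045), below its control range of 31.8 to 39.5 FPKM. Htr1b, a serotonin autoreceptor, stood at 8.95, 7.43 and 10.6 FPKM and then 2.21, 0.590 and 1.34 FPKM (log2 change -2.11, SE 0.25, adjusted p = 0.0021), and Chrm4, a muscarinic receptor, at 30.6, 29.4 and 23.6 FPKM and then 6.26, 11.2 and 9.096 FPKM (log2 change -1.57, SE 0.20, adjusted p = 0.0025). Of 28 synaptic vesicle genes 6 fell and 1 rose, with 3 falls without 12 h replicate 1 and 2 without 12 h replicate 2. Rims1 and Bsn, scaffolds of the release site, changed by -1.52 (SE 0.16, adjusted p = 0.0013) and -1.03 (SE 0.12, adjusted p = 0.0019). Snap25, part of the fusion machinery, stood at 290.3, 292 and 256 FPKM and then 156, 191 and 218 FPKM (log2 change -0.58, SE 0.16, adjusted p = 0.038), a call lost without any 1 of the 12 h libraries or without 48 h replicate 3 (highest adjusted p 0.13).

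Markers of striatum and cortex fell more often than tested genes as a whole. Of 13 striatal markers 4 fell (30.8%) and 0 rose, and of 15 cortical markers 5 fell (33.3%) and 0 rose. Over all tested genes 14.3% fell and 10.7% rose. Of 13 hippocampal markers 2 rose and 0 fell, of 13 thalamic markers 1 rose and 1 fell, and of 7 markers of cerebellum and hindbrain 1 rose and 0 fell. The risen shares of 15.4%, 7.69% and 14.3% in these lists were near the share over all tested genes. The striatal falls were 1 or 2 without any 1 library other than 48 h replicate 1 and 7 without that library, and the cortical falls were 2 without 12 h replicate 1 or 2. Hippocampal rises were 5 without 48 h replicate 1. The summed FPKM of the hippocampal markers was 203 to 225 at 12 h and 264 to 333 at 48 h. The cortical sum was 379 to 497 FPKM at 12 h, 168 to 323 FPKM at 48 h and 322 to 370.4 FPKM in the controls. The cortical marker Lamp5 stood at 56.2, 42.2 and 47.7 FPKM at 12 h and 15.98, 15.5 and 15.5 FPKM at 48 h (log2 change -1.56, SE 0.12, adjusted p = 0.00047). Choroid plexus and ependymal genes had 0 of 16 called by limma, with 1 higher at an unadjusted p under 0.05, but Ttr, transthyretin of the choroid plexus, stood at 708, 296 and 535 FPKM and then 978, 30.96 and 127 FPKM. Without 48 h replicate 1, 6 of the 16 fell, and Ttr changed by -2.92 (adjusted p = 0.015). The part of these marker differences in the neuronal and myelin values was not tested.

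**Figure D4:**
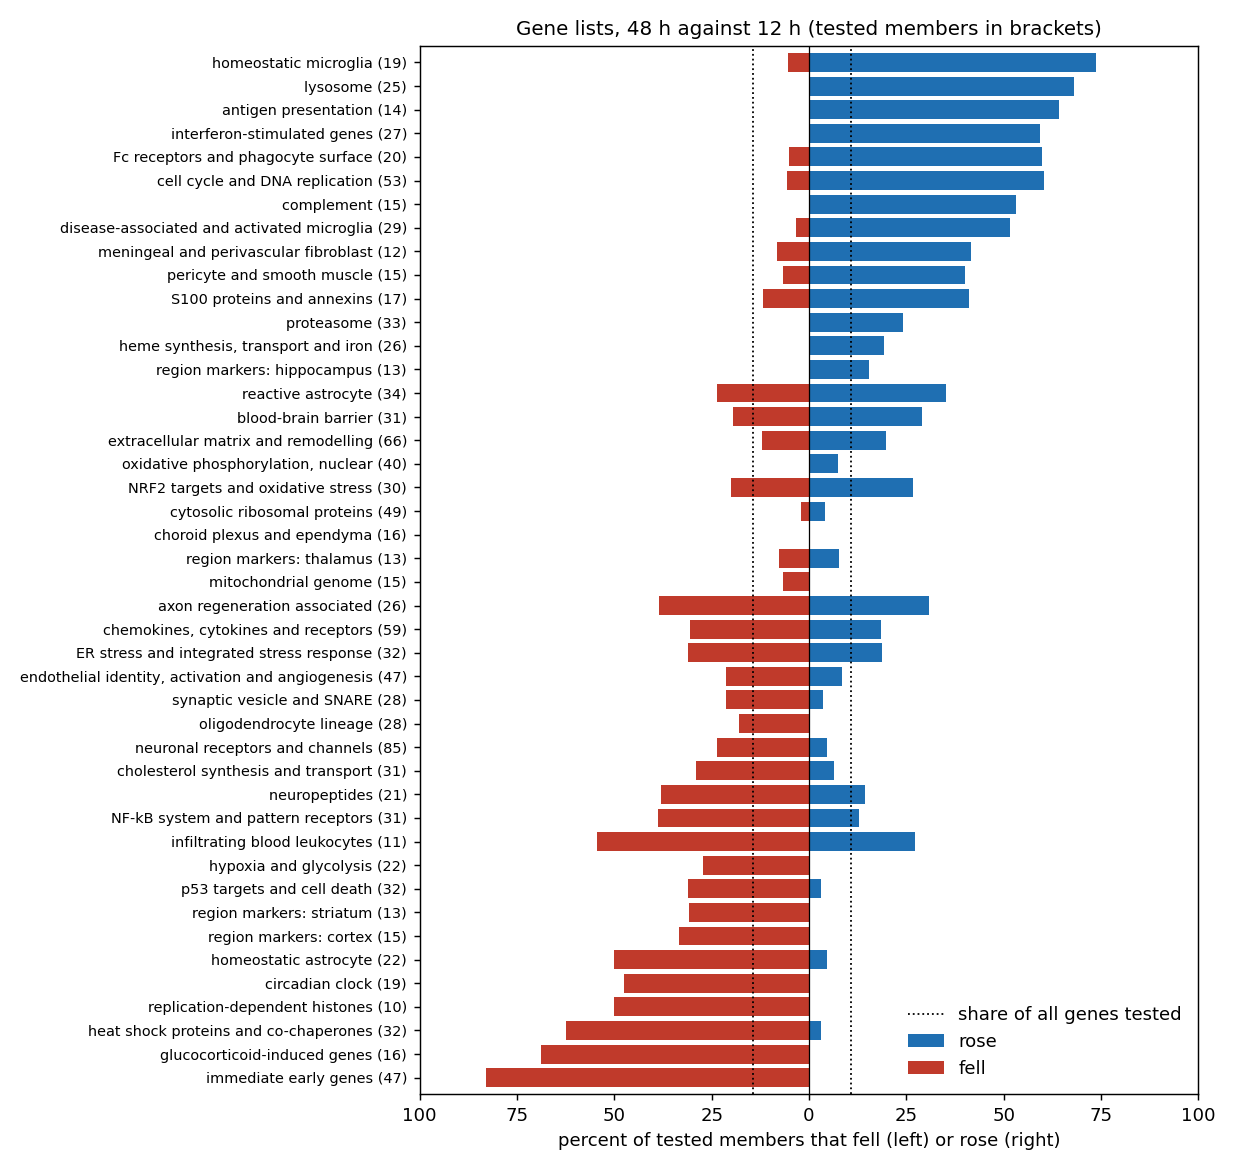
Percent of the tested members of each gene list that rose (right, blue) or fell (left, red) at 48 h against 12 h, for lists with at least 10 tested members, whose number is in brackets. Dotted lines mark the shares over all tested genes, 10.7% risen and 14.3% fallen. The homeostatic microglia, lysosome, antigen presentation and cell cycle lists have the largest risen shares, and immediate early, glucocorticoid and heat shock lists the largest fallen shares.

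Housekeeping lists had few calls apart from the proteasome. Of 33 proteasome genes 8 rose and 0 fell, with a median of 0.34, and 20 rose without 48 h replicate 1 while 2 to 4 rose without any 1 other library. Psme2, of the interferon-induced proteasome activator, changed by 0.84 (SE 0.18, adjusted p = 0.015), a call lost without 48 h replicate 4, and Psma4, a core subunit, by 0.84 (SE 0.16, adjusted p = 0.012). Of 49 cytosolic ribosomal protein genes 2 rose and 1 fell, and of 40 nuclear genes of oxidative phosphorylation 3 rose and 0 fell. The risen shares of 4.08% and 7.5% were below the 10.7% over all tested genes. Without 48 h replicate 1 these became 10 and 11 rises. Rplp0 changed by 0.92 (SE 0.17, adjusted p = 0.01) and Sdhd, of complex II, by 0.80 (SE 0.14, adjusted p = 0.0081). Of 15 mitochondrial transcripts 1 fell, the ribosomal RNA mt-Rnr2, a call lost without any 1 library other than 48 h replicates 1 and 3 (highest adjusted p 0.44).

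**Figure D5:**
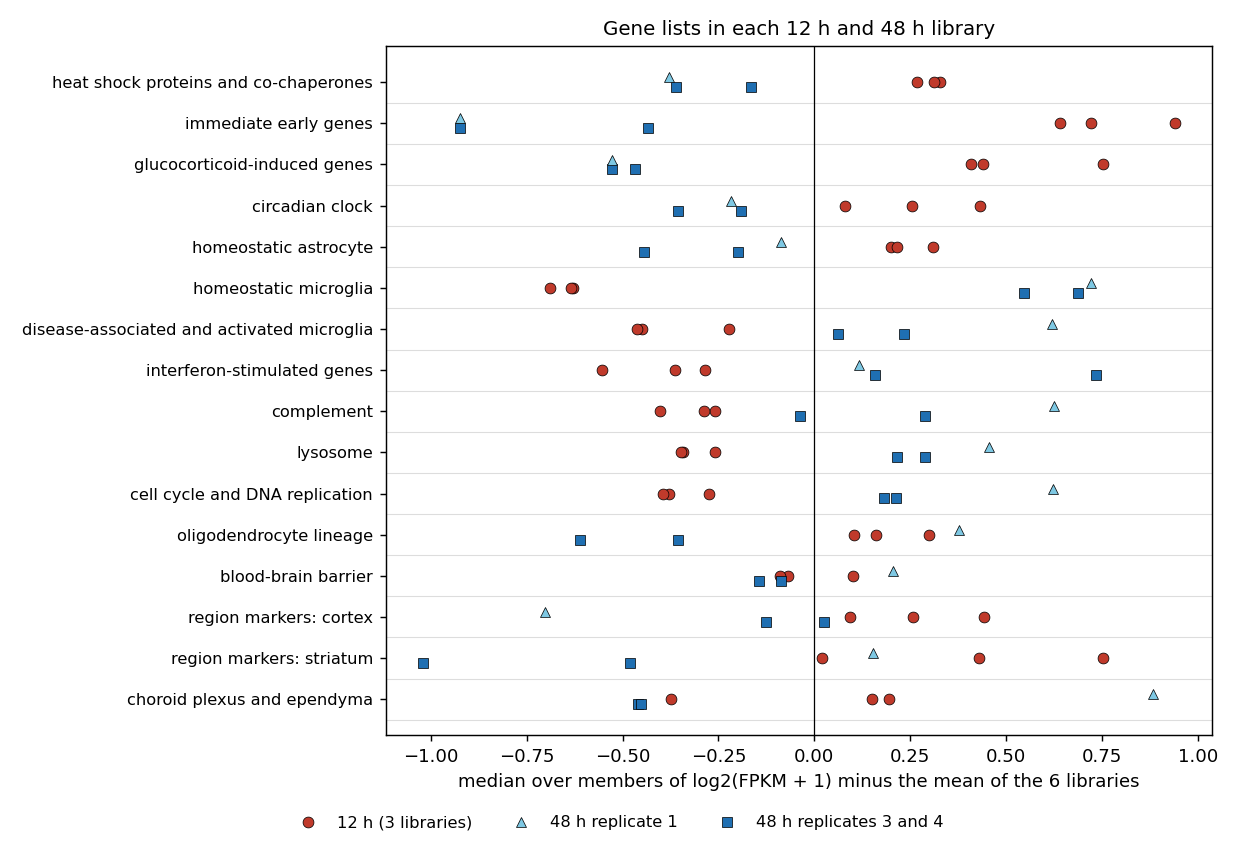
Median over the members of a list of log2(FPKM + 1) minus the mean of the 6 libraries, for 16 lists in rows. Circles are the 12 h libraries, squares 48 h replicates 3 and 4, and triangles 48 h replicate 1. The groups do not overlap in most lists, while for the oligodendrocyte, blood-brain barrier, choroid plexus and striatal lists 48 h replicate 1 lies away from replicates 3 and 4 and among or beyond the 12 h libraries.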

How the data were processed

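The deposited table gives FPKM for 54532 genes in 12 mouse brain libraries, of which 6 were compared here. The authors made the FPKM values, per the file headers, and per the submitters' processing notes the tools and builds include Bowtie 0.12.2 and mm8. Gene identifiers and positions matched GENCODE M21 on GRCm38, since 98.33% of 54409 shared identifiers had the same start and end. The counting tool, its use of strand and the selection of RNA are not given in the sources used here. Steps between low FPKM values gave back the reads, and 100% of values were whole within 0.05 reads. The total behind the deposited FPKM values is not each library's own sum, so scaling between libraries is already in them.

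Genes above 0.5 FPKM in at least 3 of the 6 libraries were tested with limma 3.58.1 (R 4.3.3) on log2(FPKM + 1), using a mean-variance trend and Benjamini-Hochberg adjustment over all 16544 genes. Fold changes on this scale understate the change of low genes. Residual degrees of freedom were 4, with a prior of 3.36. The fit was also tested on simulated data. The unnumbered 12 h library is a column whose number matches no sample title of its group. The members and the gene lists were chosen with earlier results of these data known. Named genes are the 15 largest falls and rises whose groups do not overlap and whose mean is 1 FPKM or more, the 3 largest in each direction of each list, and a set of fixed genes. Abcg2, Alad, Aldoc, Arntl, Bag3, Bdnf, Ccnd1, Cdh5, Cdk1, Cry1, Dnaja1, Egr1, Gap43, Gapdh, Hsp90aa1, Hspa8, Hspb1, Hspd1, Hspe1, Hsph1, Icam1, Il1b, Il6, Irf7, Junb, Nfkbia, Npas2, Pdia6, Pecam1, Prkab2, Rgs5, Sdf2l1, Serpina3n, Slc1a2, Slc1a3, Snap25, Tnf, Top2a, Trem2, Ttr, Tyrobp, Uros and Vegfa were chosen after their values were seen. Promoter windows, from 250 bases before to 50 after a start, came from RefSeq GRCm38.p6, with a window for 11188 tested genes. Results for some listed genes are not reported here. Alternatives were other pseudocounts, filters, normalizations and sets of libraries.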

Additional observations from a re-analysis of the deposited data

How the results depend on the processing

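The number of genes called was 4143, and 2843 to 5475 under the alternatives that used all 6 libraries or added others: another pseudocount, minimum level, normalization, length correction, variance trend, limma-voom on the recovered reads, or 9, 10 or 12 libraries in the fit. Limma-voom called 4400. The fit of 10 libraries was chosen after the data were seen. Leaving out each library in turn gave 1858 to 5523 calls, and genes changed by at least 2-fold then numbered 732 to 978. Calls of at least 2-fold numbered 818, and rose to 1643 with a pseudocount of 0.1 and to 1749 with limma-voom. Both shrink low levels less than a pseudocount of 1 does. The share of calls that were higher was 42.8%, and 51.5% after quantile normalization. No gene called with the 6 libraries had the opposite sign under any of these alternatives. Fits with another minimum level, no variance trend or added libraries keep the same difference of group means, so their signs could not turn. Fits with a library left out share most of their data with the main fit, so agreement in sign is weak support. Of 230 named genes called, 155 were called under every alternative and 75 lost the call under at least 1, most often when a 12 h library or 48 h replicate 4 was left out. For 2 named genes that were not called, the direction turned: Hmox1 was 0.21 (adjusted p = 0.84) without 48 h replicate 4 and ran from -1.14 to 0.21 with 1 library left out, and Ocln was -0.04 (adjusted p = 0.84) without 48 h replicate 1 and ran from -0.037 to 0.34. The cause was not tested. The median log2 change of the blood-brain barrier, choroid plexus, hypoxia and reactive astrocyte lists changed sign under at least 1 alternative. No paired analysis was possible because the columns of the groups share only the number 1, and the labels do not say that a number marks a shared animal or day. With 3 libraries a group, low genes are the least precise, and a change that did not pass is not shown to be absent.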

Other observations

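Genes of cholesterol synthesis and transport, which supply membranes and myelin, were lower at 48 h in 9 of 31 tested members and higher in 2, with a median log2 change of -0.13. The falls were 5 without 12 h replicate 1 and 4 without 12 h replicate 2, and the rises were 0 to 2 with 1 library left out. Cyp51, the demethylase that acts on lanosterol, stood at 37.6, 38.5 and 28.4 FPKM at 12 h and 18.3, 15.9 and 19.8 FPKM at 48 h (log2 change -0.90, SE 0.15, adjusted p = 0.0064). Pmvk, a phosphomevalonate kinase of the same route, changed by -0.76 (SE 0.12, adjusted p = 0.0058). The 48 h values of both genes lay between the 12 h values and the controls, which were 11.7 to 15.5 FPKM for Cyp51 and 16.7 to 18.2 FPKM for Pmvk. Abca1, which exports cholesterol to lipoproteins, moved the other way, from 3.62, 3.15 and 3.78 FPKM to 10.2, 5.01 and 7.91 FPKM (log2 change 0.90, SE 0.22, adjusted p = 0.024), a call lost without any 1 library other than 48 h replicates 1 and 3.

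Genes associated with axon regeneration split: of 26 tested, 8 rose and 10 fell. The rises were 5 without 12 h replicate 1 or without the unnumbered 12 h library and 4 without 12 h replicate 2. Sprr1a, a small proline-rich protein that injured neurons make, was listed at 0 in all control and 1.5 h libraries, stood at 0.495, 1.08 and 1.402 FPKM at 12 h and reached 6.95, 3.25 and 4.23 FPKM at 48 h (log2 change 1.52, SE 0.26, adjusted p = 0.008). Gap43, a growth cone protein, stood at 72.5, 87.04 and 90.1 FPKM and then 123, 113 and 144 FPKM (log2 change 0.60, SE 0.14, adjusted p = 0.022), and this call too was lost without any 1 library other than 48 h replicates 1 and 3. The members that fell included the transcription factor genes Atf3, Jun and Klf6.

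Of genes that are not protein coding 491 fell, 158 rose and 2353 were not called. Protein-coding genes also fell more often than they rose, at 13.9% against 11.9%. Of the 491 noncoding genes that fell, 189 (38.5%) lay within 10 kb of a protein-coding gene that fell, and 125 overlapped one. The same held for 17 of the 158 noncoding genes that rose (10.8%) and for 320 of the 2353 that were not called (13.6%). Noncoding classes differed, against 14.3% fallen over all tested genes. Of 46 sense intronic genes 43.5% fell, while 9.83% of 814 processed pseudogenes, 11% of 127 snoRNA genes and 11.8% of 187 miRNA genes did. With tested genes split by length into 4 equal classes, 11.4%, 16%, 11% and 4.47% rose from the shortest class to the longest, and 13.4%, 12.3%, 12.9% and 18.7% fell.

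Cd3e, a T cell receptor chain, stood at 10.3, 8.73 and 3.802 FPKM at 12 h and 0.0393, 0 and 0 FPKM at 48 h (log2 change -2.997, SE 0.30, adjusted p = 0.0011). Its partners Cd3d and Cd3g did not pass the minimum level in any 3 of the 6 libraries. Gapdh, which shares reads with many near-identical copies, stood at 42.1, 4.75 and 41.1 FPKM at 12 h and 3.77, 3.59 and 3.61 FPKM at 48 h, so that 12 h replicate 2 was near the 48 h level and the other 12 h libraries were far above it (adjusted p = 0.058).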
